A study of Mus musculus with 2 samples.

Results

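The 9 genes described here make, split and interconvert arginine, ornithine and the polyamines. They were taken as every probe named Arg1, Arg2, Ass1, Asl, Oat, Odc1, Srm, Sms or Sat1, directly or through the Entrez identifier or transcript accession of the same gene. The set was selected on the KO against CON signals of these same pools, that of Arg1 above all, so its own differences are given as a description. All 9 genes were on the array, among 17871 genes in all, and they had 12 probes. Expression was measured in back skin epidermis of C57BL6 mouse pups at postnatal day 5, in 1 pool of RNA per genotype. The control pool (CON) came from 3 littermates with the genotype VDR fl/fl, in which the vitamin D receptor gene Vdr carries loxP sites and is intact. The other pool (KO) came from 3 pups that carried the same floxed alleles and Cre recombinase under the keratin 14 promoter. This promoter is active in basal keratinocytes, so cells of the epidermis that never came from keratin 14 expressing cells keep Vdr. The series concerns how the receptors for vitamin D and for extracellular calcium act on keratinocyte differentiation.

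Arginase splits arginine into urea and ornithine. Ornithine is then either decarboxylated to putrescine, the first polyamine, or converted towards glutamate and proline. Polyamines are small positively charged molecules that bind nucleic acids and are needed for cell growth, and one of them, spermidine, is the source of hypusine, a modified residue of the translation factor eIF5A. In skin, arginase also competes with nitric oxide synthases for arginine, and urea is part of the natural moisturising mixture of the cornified layer.

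The 2 arginase genes differed in opposite directions between the pools. Arg1, the cytosolic arginase, had a 3.29-fold lower signal in KO, and Arg2, the mitochondrial arginase, a 1.60-fold higher one. The 6 other detected members differed by less than 1.5-fold, from -0.33 for Asl to 0.28 for Odc1 on the log2 scale. Sms, which encodes spermine synthase, was not detected in either pool. Since each genotype was measured once, none of these differences has a test, and pooling hides how far the 3 mice of a genotype differed. A change was therefore called by size alone, at 1.5-fold. Precision is limited by having 1 array per genotype. A log2 change is always the KO value minus the CON value.

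Each array gave an average bead signal per probe on a linear scale, with a detection p-value against negative control beads. Of 25697 probes 11501 were detected in CON and 11422 in KO, at a detection p-value under 0.01. Over all probes the raw median was 153.6 for CON and 158.5 for KO. The background mean inferred from the detection p-values was 137.94 and 141.93, so raw signals near 140 are background. Among 8865 genes detected in at least 1 pool, the median log2 change was 0.0. The pool labelled KO did not show less Vdr signal. Its 3 probes had log2 changes of 0.33, 0.37 and -0.23, and since neither the floxed exons nor the places that the probes match are known here, these probes do not check the labels. Every direction below rests on the label. All 8 keratinocyte markers, among them Krt5, Krt14, Krt1 and Krt10, were detected in both pools and differed by less than 1.5-fold.

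**Figure D1:**
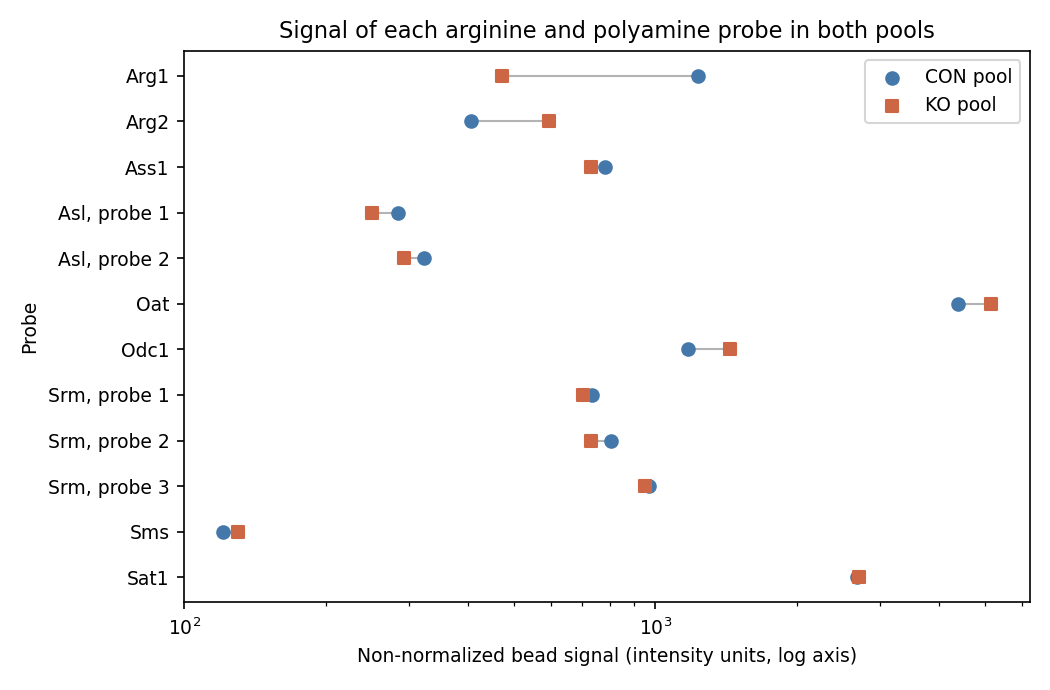
Non-normalized bead signal (log axis) of each of the 12 probes in the CON pool (circles) and the KO pool (squares), with 1 pool of 3 mice each. The widest gap is that of Arg1, 1230.7 against 473.1, and Arg2 is the only other member whose change passed 1.5-fold after normalization. Signals of different probes are not comparable as levels.

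Of the 8 detected members 1 was lower by 1.5-fold or more and 1 was higher. Over all detected genes 2.28% were lower and 3.1% higher by the same rule. The median log2 change of the 8 was -0.06, against 0.0 over all detected genes. By a stricter 2-fold rule Arg1 was again lower, among 0.135% of all detected genes. Nothing is read from these counts, since the same values chose the members.

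Arg1 is best known as the urea cycle enzyme of liver and is also made by keratinocytes. Its single probe read 1230.7 in the CON pool and 473.1 in the KO pool, in raw signal. On the normalized log2 scale these were 10.14 and 8.42, a change of -1.72. Both signals were far above the negative controls, with a detection p-value of 0 in each pool. No other detected gene had a lower change, so that Arg1 ranked 1 of 8865 from the lowest, and it kept that rank in the authors' deposited normalized values at a change of -1.35, or 2.56-fold lower. Among the 1000 detected genes closest to it in mean signal, log2 changes had an SD of 0.26, and apart from the lowest and the highest 2.5% they lay between -0.46 and 0.50. None of the 1000 was as low as Arg1. Genes are not replicates, and the members were chosen with these values known, so such ranks and ranges are a description only.

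Arg2 is the arginase of many tissues outside the liver. The single probe read a raw 405.6 in CON and 595.0 in KO, which became 8.17 and 8.85 on the log2 scale, a change of 0.68. It was detected in both pools with a detection p-value of 0. The pool order was the reverse of that for Arg1. Of the 1000 detected genes of most similar signal, 10 had a change as high or higher, and over all detected genes Arg2 ranked 150 from the highest. The call depended on the background correction: in the authors' deposited normalized values Arg2 was 1.39-fold higher, and without background correction 1.42-fold, both under the 1.5-fold limit. Its direction was the same in the 8 alternative settings tried. Those that only filter genes or average probes could not change the value of this single probe.

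**Figure D2:**
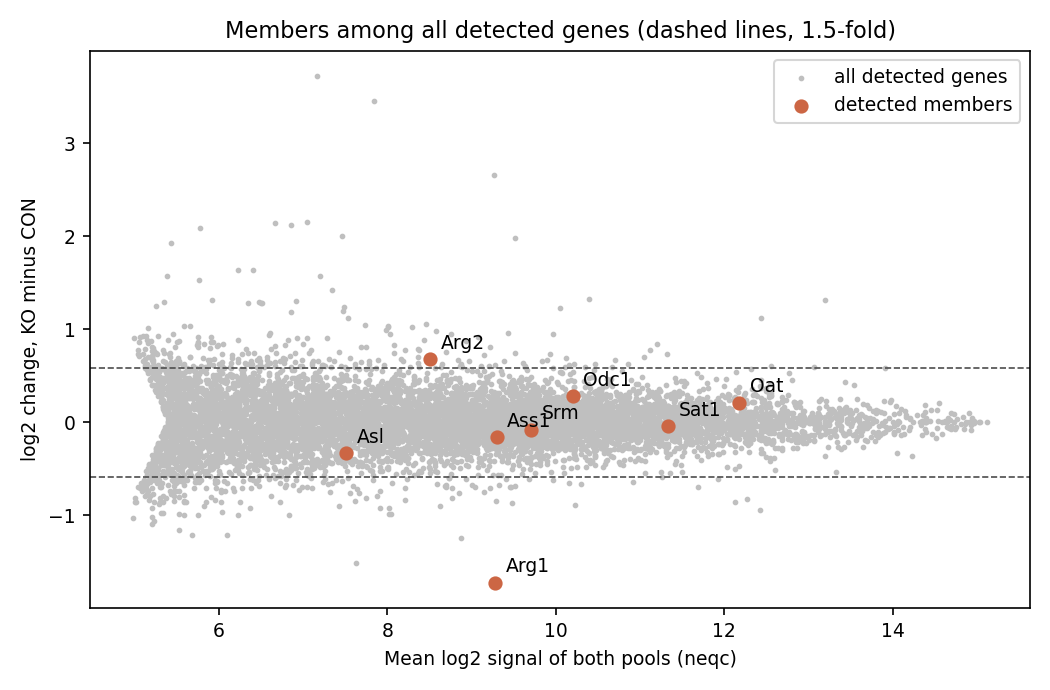
The log2 change (KO minus CON) of every detected gene (grey, 8865 genes) and of the 8 detected members (coloured) against the mean log2 signal of both pools. Arg1, at -1.72, lies below all other genes, Arg2, at 0.68, lies just above the upper 1.5-fold line, and the other 6 lie within the cloud.

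The genes that flank both arginase genes in the RefSeq annotation differed by at most 0.21 on the log2 scale. These were looked up after the arginase values had been seen. Beside Arg1, Med23, which encodes a subunit of the Mediator complex, had a log2 change of -0.12 and Akap7, an anchoring protein of protein kinase A, of -0.10. Beside Arg2, Pigh, an enzyme subunit of GPI anchor synthesis, had a change of -0.21 and Vti1b, a vesicle fusion protein, of 0.0. All 4 genes were detected.

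Among the 5105 other detected genes whose log2 signal averaged 8 or more, the changes nearest to that of Arg1 were those of Ces4a, a carboxylesterase, Agpat2, an acyltransferase of phospholipid and triglyceride synthesis, Scd2, a stearoyl-CoA desaturase, and Krt77, a suprabasal keratin. Ces4a read 834.5 in CON and 435.7 in KO, and its log2 change was -1.24. Its gap of 0.48 to Arg1 was the smallest of the 4. Changes were -0.98 for Agpat2, -0.98 for Scd2 and -0.94 for Krt77. In 2 pools likeness means only a difference of similar size, and the closest gene was still well short of Arg1.

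Arg1 is also made by liver cells, some macrophages and other myeloid cells, so the markers of those cells were set beside it. Of 10 macrophage markers 2 were detected, Cd68 at a log2 change of -0.22 and Csf1r at -0.05, while Mrc1, Chil3, Retnla and Adgre1 were at background in both pools. The normalized linear signals of the 10, each of which includes an offset of 16, summed to 425 in CON and 417 in KO. None of the 7 granulocyte markers was detected in either pool, with summed signals of 199 and 178. Of 7 liver markers Apoa1 alone was detected, at a change of -0.16, and albumin (Alb) was at background, with sums of 203 and 207. Apart from Cd68, Csf1r and Apoa1, the markers of these 3 cell types were at background in both pools.

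Other markers did differ. Of 4 red cell markers on the array Hba-a1 was detected, with a change of -0.69, and their summed signal was 751 in CON and 491 in KO. Of 6 skeletal muscle markers 3 were detected, and their summed signal was 174 in CON and 328 in KO. Myl1 was detected in both pools, with a change of 1.64, while Myh8 and Acta1 were detected in KO alone, with bounds of at least 1.53-fold and 1.04-fold higher. Among 5 sebaceous gland markers Awat2 and Plin2 were lower, at changes of -0.90 and -0.66, and Mc5r was higher at 1.12. Scd1 had a change of 0.08 and gave most of the summed signal, which was 8638 in CON and 8745 in KO. Scd3 was detected in CON alone, with no bound above 1-fold. Of 6 fibroblast markers 2 were detected, of which Col1a1 was lower at a change of -0.83, with sums of 731 and 624. In the authors' deposited normalized values Col1a1, Plin2 and Hba-a1 were 1.24-fold, 1.39-fold and 1.45-fold lower, under the 1.5-fold limit. Awat2 was 1.57-fold lower there, and Mc5r and Myl1 were 1.55-fold and 1.64-fold higher. Within the other lists no marker differed by 1.5-fold: 4 of 6 Langerhans and T cell markers (sums of 11473 and 11778) and 4 of 5 melanocyte markers (2875 and 2570) were detected, and 0 of 4 endothelial markers. The part of these differences in the arginase values was not tested. In bulk RNA fewer cells of a type and less RNA per cell cannot be told apart.

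Ass1 and Asl, which rebuild arginine from citrulline in successive steps, were both slightly lower in KO. Ass1 read 782.7 in CON and 729.7 in KO, with a log2 change of -0.16. Among its 1000 nearest genes by signal 227 were as low or lower. For Asl the brighter of 2 probes read 322.1 in CON and 292.6 in KO, a change of -0.33, and the dimmer 284.4 and 250.1, a change of -0.46. Both Asl probes were detected in both pools and had the same direction. Probes of one gene read the same RNA and are not replicates.

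Oat and Odc1 draw on the ornithine that arginase makes. Oat, ornithine aminotransferase, sends it towards glutamate and proline and read 4401.3 in CON and 5167.7 in KO, and its log2 change was 0.21. Odc1, ornithine decarboxylase, makes putrescine in the rate-limiting step of polyamine synthesis, and read 1171.2 in CON and 1437.3 in KO, a change of 0.28. Both were higher in KO and both stayed under the 1.5-fold limit in every setting tried. Of the 1000 genes nearest in signal 114 were as high as Oat or higher, and 79 as high as Odc1 or higher.

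Srm, spermidine synthase, was measured by 3 probes, all detected in both pools. The brightest read 969.9 in CON and 950.5 in KO, and its log2 change was -0.08. The others read 807.1 and 730.6 (-0.20), and 732.8 and 700.6 (-0.12). All 3 were lower in KO by small amounts.

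Sat1, the acetyltransferase that starts polyamine breakdown and export, had nearly equal signals, 2686.5 in CON and 2712.8 in KO. Its log2 change after normalization was -0.04, the smallest of the detected members, and its sign was opposite to that of the raw difference. Sms read 120.6 in CON and 130.2 in KO, both below the inferred background mean. This probe gives no information on the level of spermine synthase, and no fold is given for it.

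**Figure D3:**
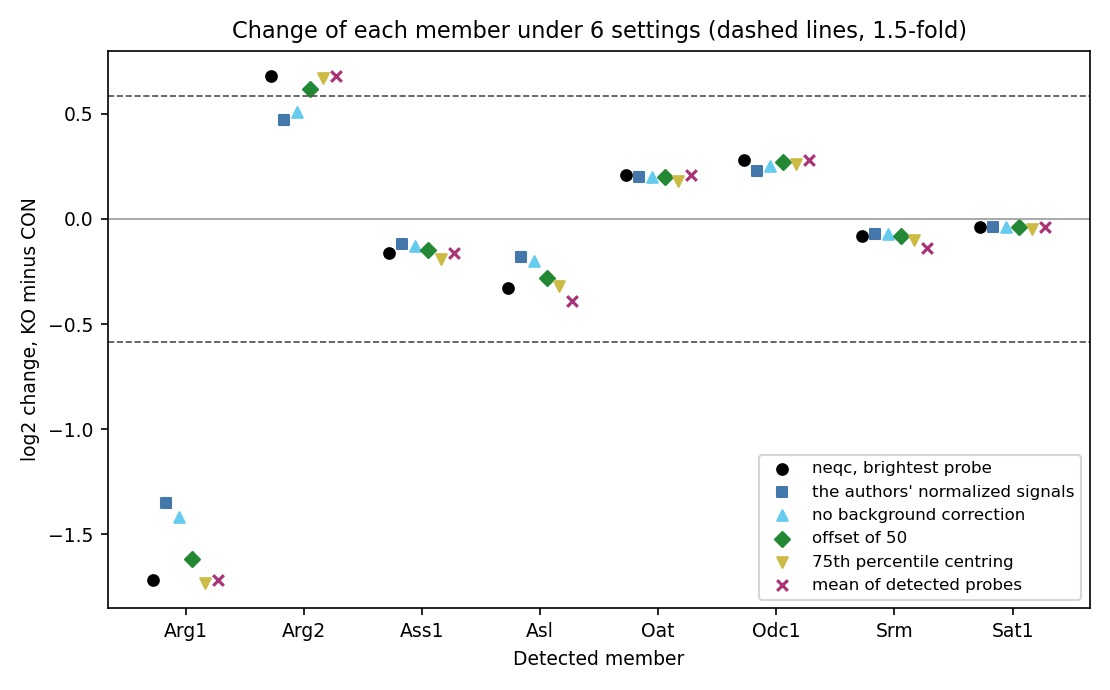
The log2 change (KO minus CON) of each detected member under 6 processing settings, with 1 point per setting and dashed lines at 1.5-fold. Arg1 stays between -1.73 and -1.35, Arg2 crosses the 1.5-fold line from 0.68 to 0.47, and the other 6 members keep within the lines and on the same side of 0.

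The wider pathway was followed in 6 lists. In them 31 of the genes on the array were detected, of which 1 was lower and 1 higher by 1.5-fold, both dim genes. This is close to the 2.28% lower and 3.1% higher among all detected genes. Neither passed 1.5-fold in the authors' deposited normalized values. The lower one, Slc25a29, was detected in CON alone, and its bound of at least 1.40-fold is under the 1.5-fold limit. The median log2 change of the 31 was 0.01, and it includes genes detected in 1 pool alone.

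Arginine and ornithine carriers were mostly at or near background. Of 9 on the array 5 were detected, and 1 was lower by 1.5-fold. This was Slc25a29, a mitochondrial carrier of basic amino acids, which read 180.6 in CON and 162.0 in KO and was detected in CON alone, so its fold is a bound of at least 1.40-fold lower on the background-corrected scale. The amino acid carriers Slc7a6, Slc7a3 and Slc7a7 were detected in KO alone, with log2 changes of 0.53, 0.46 and 0.46, and raw signals of at most 183.1. Their bounds were at least 1.28-fold, 1.34-fold and 1.02-fold higher. The dimmer probe of Slc7a3 and that of Slc7a7 were not detected in either pool. Slc25a15, the mitochondrial ornithine carrier, was the single carrier detected in both pools. Its brighter probe read 503.1 in CON and 586.0 in KO, a change of 0.23. The dimmer, also detected in both pools, read 219.2 and 215.2, a change of -0.19, so its probes disagreed. In the authors' deposited normalized values, which keep the background, Slc7a6, Slc7a3 and Slc7a7 were 1.13-fold, 1.11-fold and 1.11-fold higher. Slc25a29 was 1.19-fold lower there. Since 4 of the 5 detected carriers passed the detection filter only through the pool where they were higher, no median is given for them. Slc7a1, the main cationic amino acid carrier of many cells, was not detected in either pool.

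In the list of urea cycle, nitric oxide and creatine genes, 6 of 13 on the array were detected, all from its nitric oxide and creatine parts. Their median log2 change was -0.27, with 4 negative and 2 positive values and none past 1.5-fold, and it says nothing of the urea cycle. The median was -0.11 in the authors' deposited normalized values. Ckb, the brain-type creatine kinase, read a raw 7384.3 in CON against 5383.1 in KO, a change of -0.51, or 1.43-fold lower. In the authors' deposited normalized values it was 1.44-fold lower. Ddah1, which degrades the methylarginines that inhibit nitric oxide synthases, had a change of -0.39 at raw signals of 201.5 and 189.2, and of -0.16 in the authors' deposited normalized values. Nos3, the endothelial nitric oxide synthase, had a change of -0.35 by its brightest probe, and -0.43 and -0.36 by the others, at raw signals of 201.7 to 246.1, and its brightest probe had a change of -0.17 in the authors' deposited normalized values. The mitochondrial urea cycle genes Nags, Cps1 and Otc and the inducible synthase gene Nos2 were not detected in either pool.

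Genes that link ornithine to proline and glutamate had a median of 0.03 over 5 detected of 8 on the array, and none passed 1.5-fold. Prodh, proline dehydrogenase, read 414.4 in CON and 506.2 in KO, with a change of 0.33. Glud1, glutamate dehydrogenase, had a change of 0.22 by its brighter probe and -0.51 by a dim one that was detected in CON alone, so its probes disagreed.

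Genes that control and turn over polyamines had a median of 0.01 over 7 detected of 10 on the array, and none passed 1.5-fold. Sat2, a relative of Sat1, had the largest difference, a change of -0.57 at raw signals of 164.3 and 153.5, but was detected in CON alone and is lower by at least 1.01-fold. Amd2, an S-adenosylmethionine decarboxylase gene, had a change of 0.40, from 175.4 in CON to 199.0 in KO. The closely related gene Amd1 was not detected, and signal shared between probes of such near-identical genes was not measured. Atp13a2, a lysosomal polyamine exporter, had a change of -0.31 at raw signals of 674.1 and 586.8.

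Other genes of that list, chosen here after their values were seen, were nearly level. Oaz1, the antizyme that targets Odc1 protein for degradation, read 4669.0 in CON and 4373.5 in KO, a change of -0.13. The spermine oxidase gene Smox had 5 detected probes with changes from -0.20 to 0.14. Paox, a peroxisomal polyamine oxidase, had 4 detected probes with changes from -0.17 to 0.07.

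Among the hypusination genes Eif5a, which encodes eIF5A, had a change of -0.16 at raw signals of 10419.7 and 9574.5, and Dhps, the first enzyme of the modification, of 0.17 at 552.1 and 624.9. Both of these detected genes were under 1.5-fold. In the list for methionine and the salvage of methylthioadenosine, the by-product of spermidine and spermine synthesis, 6 of 7 genes were detected and 1 was higher. Enoph1, a salvage enzyme, read 199.7 in CON and 262.3 in KO, a change of 0.74 or 1.67-fold, and 1.27-fold in the authors' deposited normalized values. Mtap, the first enzyme of that route, had a change of -0.08 by its brighter probe and -0.40 by its dimmer one, each detected in both pools. Apip and Adi1 had changes of -0.08 and -0.07. The list's median was -0.03.

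**Figure D4:**
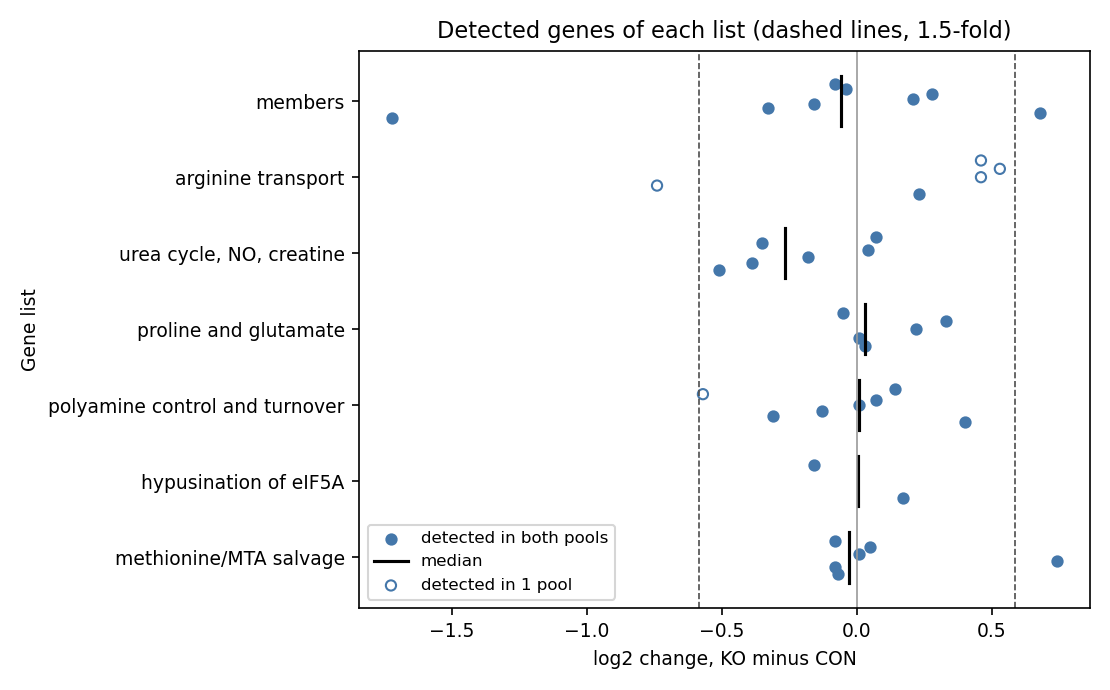
The log2 change (KO minus CON) of each detected gene, by list, with filled points for genes detected in both pools, open points for genes detected in 1 pool, short vertical bars for the list medians (none for the carriers, mostly detected in 1 pool) and dashed lines at 1.5-fold. Arg1 at -1.72 lies farthest from 0, and outside the members the points past 1.5-fold are Slc25a29 at -0.74 and Enoph1 at 0.74.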

How the data were processed

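The authors deposited bead intensity per probe on a linear scale, non-normalized and normalized, each with a detection p-value, per the file headers. The submitters' processing notes name GenomeStudio 2011.1, and how the normalization was done is not stated there. The series matrix held the same normalized values, with 0 differing.

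The non-normalized intensities went through neqc in limma 3.58.1 (R 4.3.3), which infers the background of each array from its detection p-values, adds 16 as an offset, quantile normalizes and takes log2. The offset and the background model set the fold of dim genes. RefSeq's GRCm38.p6 gene table named the probes: 16938 by Entrez identifier, 7420 by accession, 465 by symbol and 553 by synonym, while 321 kept the file's name. The probe with the highest mean log2 signal stood for a gene. A gene with a detection p-value under 0.01 in either pool counted as detected. A gene undetected in 1 pool got a bound, with its signal there set to the array's lowest detected signal if that was higher.

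The members and lists were chosen with earlier results of these data known. The genes named were all members, then in each list those past 1.5-fold and up to 3 others with the largest change, the 4 bright genes closest to Arg1, and Vdr; 1 gene that the rule names is not reported here. Any other gene named, such as Slc25a15, Oaz1, Smox, Paox, the flanking genes, single markers and undetected list members, was chosen after its values were seen. The steps were tested on simulated data. Python 3.11.15 and pandas 2.3.3 were used.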

Additional observations from a re-analysis of the deposited data

How the results depend on the processing

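The call of Arg1 as lower held in the 8 alternative settings, with log2 changes from -1.73 to -1.35. The detection and brightness filters could not change the value of any member. Averaging probes could not change that of a member with a single probe, such as Arg1 or Arg2. Arg2 ranged from 0.47 to 0.68, and 0 members were 1.5-fold higher in the authors' deposited normalized values or without background correction. The other 6 detected members kept their sign and stayed under 1.5-fold in every setting that included them. For Asl these were 7 of the 8 alternatives, since its mean log2 signal of 7.51 did not pass the brightness filter. The pathway lists had 0 genes lower and 0 higher in the authors' values, without background correction, with an offset of 50, and at a mean log2 signal of at least 8. With detection in both pools 0 were lower.

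Over all detected genes 202 were lower and 275 higher. These counts were 15 and 48 in the authors' values, 23 and 50 without background correction, 57 and 102 with an offset of 50, and 43 and 66 at a mean log2 signal of at least 8. Detection in both pools left 114 lower and 185 higher. The share of calls that were higher moved from 57.7% to 76.2% in the authors' values and 68.5% without background correction. These settings leave more of the background in the signal, add a larger offset or test fewer genes. No paired analysis was possible because each genotype had 1 pool, and no replicate could be left out.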
